A study of Mus musculus with 39 samples.

Results

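Crushed sciatic nerves from *Lepr*-cKO animals were compared with those from *Lepr*-ctrl animals at 2 weeks post-crush (wpc) in 9 of the 39 bulk RNA-seq libraries of the series, 4 *Lepr*-cKO and 5 *Lepr*-ctrl. The tissue was the endoneurium of the distal sciatic nerve, the compartment inside the perineurium that holds axons, Schwann cells, macrophages, fibroblasts and vessels. All mice were adult, on a C57BL/6 background, and homozygous for the floxed *Lepr* allele (*Lepr* fl/fl). *Lepr*-cKO mice carried *Dhh*-Cre in addition, a transgene that drives the recombinase from *Dhh* sequences in cells of the Schwann lineage from embryonic life on, and no *Lepr*-ctrl mouse carried it, so the loss of *Lepr* and the presence of the transgene cannot be told apart in this design. One nerve of each mouse was crushed, the contralateral nerve served as healthy tissue, and other mice were taken at 4 wpc. Animals are named here by genotype and the number in the sample titles. A library was kept if *Acta1*, the skeletal muscle actin, was at or under 1000 CPM (counts scaled to a library size of 1000000). The injured *Lepr*-cKO library of animal cKO-126 was left out at 10400 CPM, whereas the 9 libraries kept ranged from 0 to 5.53 CPM and the contralateral nerve of that animal had 7.43 CPM. The libraries were thus chosen by their *Acta1* values, which are given without a test.

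The leptin receptor is a single-pass cytokine receptor that signals through JAK2 and STAT3, and its signalling is restrained by SOCS3. After a crush, Schwann cells of the distal nerve leave their myelinating state, take up a repair state that depends on the transcription factor JUN, break down myelin and later remyelinate the regrown axons. Desert hedgehog (*Dhh*) is a secreted signal of Schwann cells that acts on the cells of the nerve sheaths and is used as a driver of Schwann cell recombination. The comparison asks which transcripts of the whole nerve depend on the leptin receptor of Schwann cells while remyelination begins.

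Total counts were 21756672 to 27752451 in *Lepr*-ctrl and 26089596 to 31081921 in *Lepr*-cKO. No pair of libraries held identical counts, and correlations of log2 CPM between libraries were 0.95 to 0.986. From *Xist* and Y-linked transcripts, *Lepr*-ctrl held 4 females and 1 male and *Lepr*-cKO 2 females and 2 males, and this imbalance was examined with a term for sex. The Schwann cell markers *Sox10*, a transcription factor of the lineage, and *S100b*, a calcium-binding protein gene, were present in every library, at 221 to 586 and 69.5 to 271 CPM in *Lepr*-ctrl and 310 to 464 and 78 to 295 CPM in *Lepr*-cKO. *Lepr*-ctrl animal ctrl-144 stood apart. It had the lowest *Sox10* and *S100b*, the highest macrophage sum (18560 CPM against 8224 to 13530 CPM in the other *Lepr*-ctrl libraries) and 33% mitochondrially encoded counts, against 8.19% to 11.8% in the other *Lepr*-ctrl libraries. Among *Lepr*-cKO libraries, animal cKO-135 had 29.7% mitochondrially encoded counts and the others 12.9% to 19.1%. Results that these libraries moved most are given with and without them. In whole tissue, fewer cells of a type and less RNA per cell cannot be told apart.

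**Figure D1:**
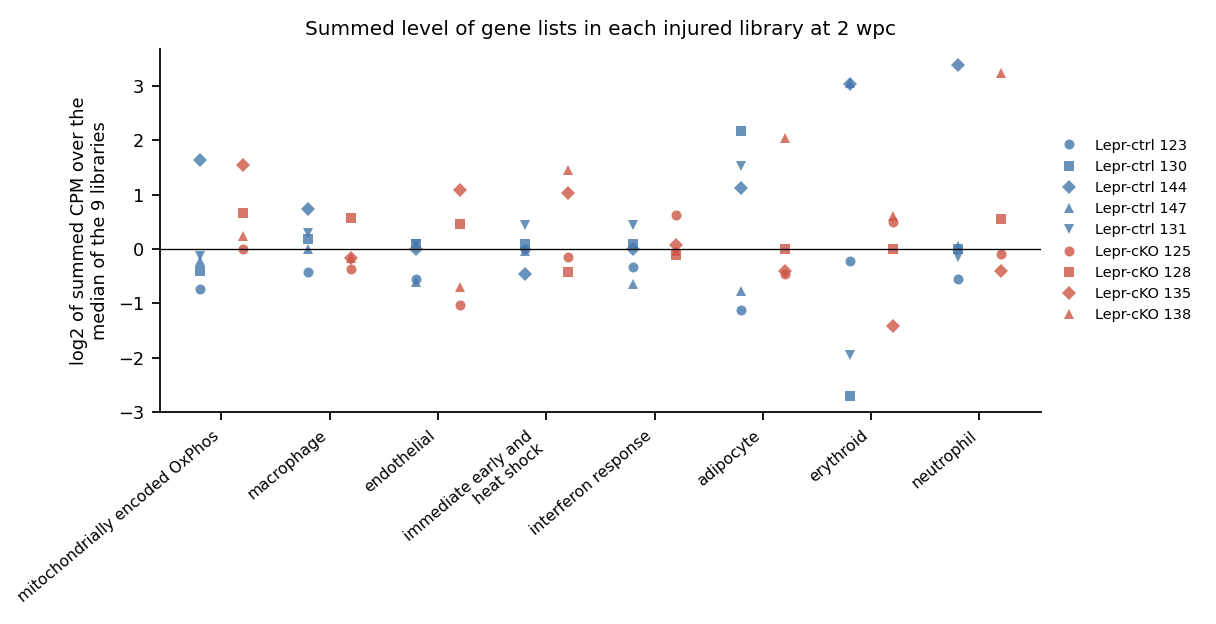
Each point is 1 injured library at 2 wpc. The vertical axis is the log2 of the summed CPM of a gene list over the median of the 9 libraries, and columns are lists of genes. *Lepr*-ctrl animal ctrl-144 lies highest for the mitochondrially encoded and macrophage lists, while adipocyte genes are highest in *Lepr*-ctrl animals ctrl-130 and ctrl-131 and in *Lepr*-cKO animal cKO-138, followed by ctrl-144.

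Between the nerves of the 2 genotypes, 1 gene was called, which does not show that the others were equal. *Gm49442*, an antisense RNA that lies within the *Dhh* gene, was higher in *Lepr*-cKO nerves, and no gene was called lower. This is 1 of 18394 genes tested, or 0.00544%, at an adjusted p under 0.05 (edgeR quasi-likelihood test, Benjamini-Hochberg adjustment) and an absolute log2 fold change above 1. At an unadjusted p under 0.05, 434 genes (2.36%) were higher and 500 (2.72%) lower, together 5.08% of the genes tested. Where no gene differs, a threshold of 0.05 gives about that share on average, but the share depended on the fit. It was 208 of 16817 genes with only the 9 libraries in the fit, and 1828 of 18673 without both ctrl-144 and cKO-135. The share therefore cannot tell whether further genes differ. In 47 genes (0.256%) every *Lepr*-cKO library lay above every *Lepr*-ctrl library, and in 61 genes (0.332%) every *Lepr*-cKO library lay below, together 0.587% of the genes tested. The median SD within a genotype was 0.386 on the log2 CPM scale, and the median absolute difference of the genotype means was 0.138. The first is a spread of single nerves and the second a difference of means, so they do not rank genotype against animal. Principal components of the 9 libraries explained 33.2%, 22.6% and 17.2% of the variance, and the genotypes overlapped on each of these 3. The first component was led by *Xist* and the adipocyte genes *Cfd* and *Adipoq* at one end and by the Y-linked genes *Eif2s3y* and *Ddx3y* at the other.

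**Figure D2:**
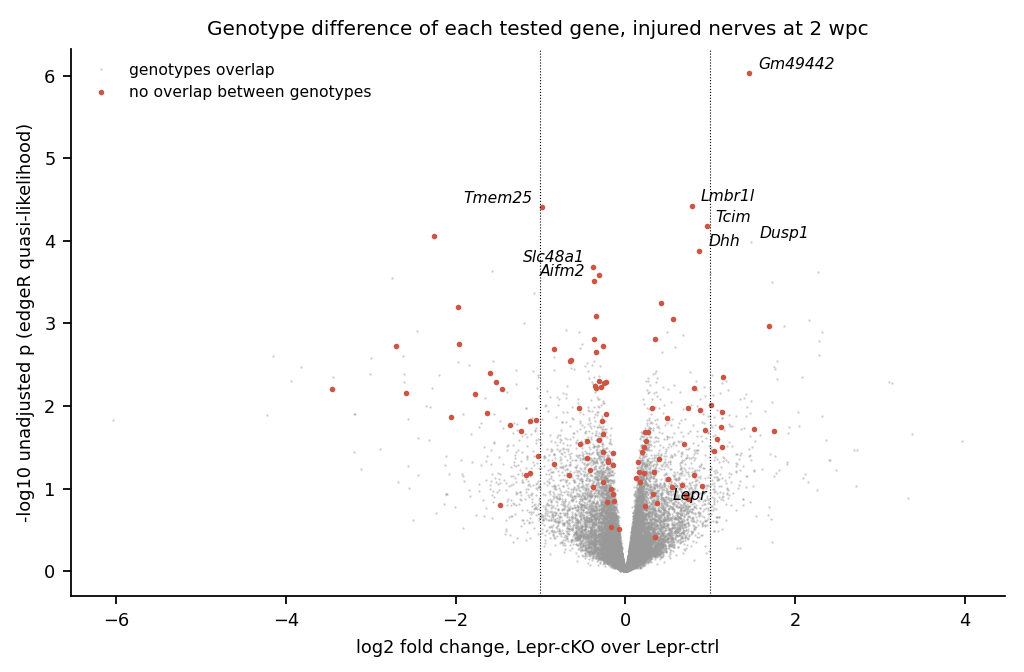
Each point is 1 of 18394 genes in injured nerves at 2 wpc, with the log2 fold change of *Lepr*-cKO over *Lepr*-ctrl on the horizontal axis and the negative log10 of the unadjusted edgeR p on the vertical axis. Dotted lines mark an absolute log2 fold change of 1, red points are genes whose genotypes did not overlap, and *Gm49442* at the top right is the one gene called.

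*Gm49442* (ENSMUSG00000116033, GRCm38 chr15:98893351-98895175, plus strand) had 6.25, 3.24, 2.61, 4.5 and 2.7 CPM in *Lepr*-ctrl animals ctrl-123, ctrl-130, ctrl-144, ctrl-147 and ctrl-131, and 14.8, 7.92, 10.4 and 9.34 CPM in *Lepr*-cKO animals cKO-125, cKO-128, cKO-135 and cKO-138. The genotypes did not overlap, and counts per library were 54 to 513. The means were 3.86 ± 1.53 CPM (SD, n = 5) and 10.6 ± 2.99 CPM (SD, n = 4). The log2 fold change was 1.46 (SE 0.25, 95% confidence interval 0.96 to 1.96), and the edgeR adjusted p was 0.0174. With a term for sex it was 1.37 (edgeR adjusted p = 0.0135). The call was lost with only the 9 libraries compared in the fit (edgeR adjusted p = 1) and with limma sample quality weights (adjusted p = 0.238), at log2 fold changes of 1.45 in both. With each library left out in turn, the log2 fold change stayed between 1.24 and 1.69, but the call held in 4 of 9 cases. Without *Lepr*-ctrl animal ctrl-144 the edgeR adjusted p was 0.063, and it was also above 0.05 without *Lepr*-ctrl animals ctrl-130 (0.0814) and ctrl-131 (0.152) and without *Lepr*-cKO animals cKO-125 (0.0852) and cKO-135 (0.0527).

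At the same place on chromosome 15, *Dhh* and *Lmbr1l* were also higher in each *Lepr*-cKO nerve than in each *Lepr*-ctrl nerve, without passing the test after adjustment. *Dhh* (ENSMUSG00000023000, chr15:98891152-98898540, minus strand) covers the whole interval of *Gm49442* on the opposite strand. It had 203, 205, 67.2, 181 and 186 CPM in *Lepr*-ctrl and 391, 262, 295 and 286 CPM in *Lepr*-cKO nerves, in the same order of animals. All 4 *Lepr*-cKO nerves lay above the highest *Lepr*-ctrl nerve. The log2 fold change was 0.87 (SE 0.2, 95% confidence interval 0.46 to 1.28), and the edgeR adjusted p of 0.348 did not pass. *Lepr*-ctrl animal ctrl-144, with 67.2 CPM, was far below the others of its group, and without it the log2 fold change of *Dhh* was 0.67 (edgeR adjusted p = 0.204). *Lmbr1l* (ENSMUSG00000022999, chr15:98903917-98918231, minus strand) encodes a membrane protein. It had 111, 73.4, 119, 111 and 71.9 CPM in *Lepr*-ctrl and 169.2, 195, 124 and 181 CPM in *Lepr*-cKO nerves, again without overlap. Its log2 fold change was 0.78 (SE 0.17, 95% confidence interval 0.45 to 1.12), with an edgeR adjusted p of 0.242, and without both ctrl-144 and cKO-135 it was 0.98 (edgeR adjusted p = 0.035). Whether the reads were counted by strand is not stated, and the library kit does not mark strand, so reads of *Gm49442* and *Dhh* cannot be told apart where the genes overlap. Whether the *Dhh*-Cre transgene carries sequence of these 3 genes, so that reads from its copies were counted to them in *Lepr*-cKO nerves, was not tested.

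The promoters of *Dhh* and *Lmbr1l* are shown because these genes differed together, as 300 bases from 250 before to 50 after the annotated start, taken from RefSeq on GRCm38.p6 and written 5′ to 3′ on the minus strand. The *Dhh* window is chr15:98898491-98898790 and the *Lmbr1l* window chr15:98918049-98918348. The start used for *Lmbr1l* differs from that of the gene interval given above, which begins at 98918231 on the minus strand, and lies inside that interval. Capitals mark the GC box (GGGCGG or its reverse complement CCGCCC).
*Dhh*: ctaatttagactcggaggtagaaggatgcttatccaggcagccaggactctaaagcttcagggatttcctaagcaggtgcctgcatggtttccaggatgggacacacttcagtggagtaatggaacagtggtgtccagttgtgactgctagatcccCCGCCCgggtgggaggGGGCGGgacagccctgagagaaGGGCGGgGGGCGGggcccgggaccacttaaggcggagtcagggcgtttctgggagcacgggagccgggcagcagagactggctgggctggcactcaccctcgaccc
*Lmbr1l*: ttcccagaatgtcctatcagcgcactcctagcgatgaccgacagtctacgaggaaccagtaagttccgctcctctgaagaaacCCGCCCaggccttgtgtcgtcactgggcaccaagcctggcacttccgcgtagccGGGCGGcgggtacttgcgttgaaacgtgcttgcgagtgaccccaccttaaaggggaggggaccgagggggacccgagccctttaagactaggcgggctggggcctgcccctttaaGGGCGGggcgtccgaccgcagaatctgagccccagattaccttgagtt

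The *Dhh* window held 4 GC boxes and the *Lmbr1l* window 3, and 61.7% and 61.3% of their bases were G or C. Of 32851 promoters of the same length, 35.7% held at least 1 GC box on either strand. The motif ACAAAG or its reverse complement CTTTGT, which SOX factors such as SOX10 can bind, was present in neither window and in 18.7% of all promoters.

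The other genes tested within 100 kb of *Dhh* overlapped between the genotypes. *Rhebl1*, a GTPase gene whose annotated interval overlaps *Dhh* and *Gm49442*, had a log2 fold change of -0.098 (SE 0.177). *Kmt2d*, a histone methyltransferase gene that starts 27.3 kb from *Dhh* on one side, had 0.012 (SE 0.187), and the tubulin gene *Tuba1b*, 36 kb away on the other, had 0.099 (SE 0.152). Of 14 genes tested within 100 kb of *Dhh*, 3 differed without overlap, and these were *Gm49442*, *Dhh* and *Lmbr1l*. Over 2 Mb on either side, 38 of 95 genes were higher in *Lepr*-cKO nerves, with a median log2 fold change of -0.055, and 1 further gene, *Slc48a1*, differed without overlap, in the other direction.

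**Figure D3:**
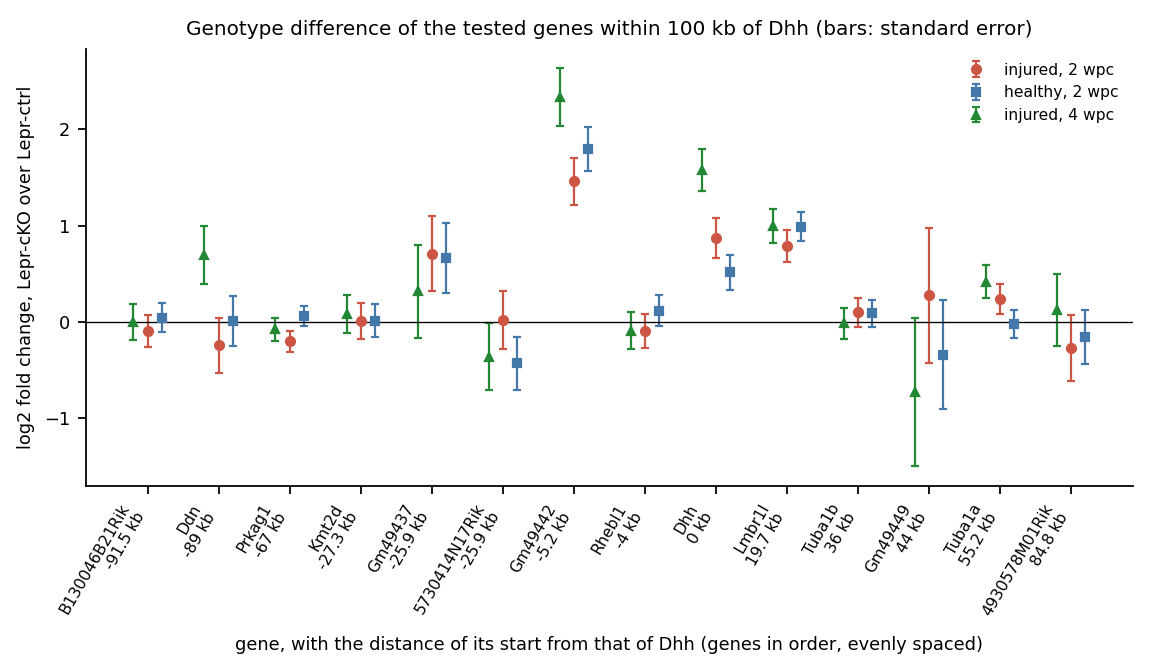
Genes tested within 100 kb of *Dhh* are ordered by position, with the distance of each start from that of *Dhh* in kb. The vertical axis is the log2 fold change of *Lepr*-cKO over *Lepr*-ctrl with its standard error, in injured nerves at 2 wpc (circles), healthy nerves at 2 wpc (squares) and injured nerves at 4 wpc (triangles). *Gm49442*, *Dhh* and *Lmbr1l* lie above 0 in all 3 comparisons, while *Kmt2d*, *Rhebl1* and *Tuba1b* lie near 0.

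The same 3 genes were higher in every *Lepr*-cKO library than in every *Lepr*-ctrl library in the other comparisons of the series as well, which use contralateral nerves at 2 wpc, of 8 of these animals and of 3 others, and the nerves of other mice at 4 wpc. Of all 18394 genes tested, *Gm49442*, *Dhh* and *Lmbr1l* were the 3 that did so in injured and healthy nerves at both time points, and 0 genes were lower in all 4 comparisons. Genes higher without overlap made up 0.103% of those tested in healthy nerves at 2 wpc, 2.9% in injured nerves at 4 wpc (2.8% were lower) and 0.495% in healthy nerves at 4 wpc, while 0.125% were lower in healthy nerves at 2 wpc. *Gm49442* was at 3.97 ± 0.527 CPM (SD, n = 5) in healthy *Lepr*-ctrl and 13.8 ± 2.1 CPM (SD, n = 6) in healthy *Lepr*-cKO nerves at 2 wpc, a log2 fold change of 1.79 (edgeR adjusted p = 6.38e-05). In injured nerves at 4 wpc it was at 1.53 ± 0.972 and 7.73 ± 2.13 CPM (SD, n = 4 each), a log2 fold change of 2.33 (edgeR adjusted p = 5.66e-05). For *Dhh* the log2 fold change was 0.51 (SE 0.18) in healthy nerves at 2 wpc, not past the test, and 1.58 (SE 0.22, edgeR adjusted p = 0.000225) in injured nerves at 4 wpc. For *Lmbr1l* they were 0.99 (SE 0.15, edgeR adjusted p = 0.00197) and 0.99 (SE 0.18, edgeR adjusted p = 0.00771). The crush itself lowered *Dhh* in control nerves at 2 wpc, by a log2 fold change of -1.21 (edgeR adjusted p = 1.84e-06), and left *Gm49442* at -0.04 (edgeR adjusted p = 0.894).

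**Figure D4:**
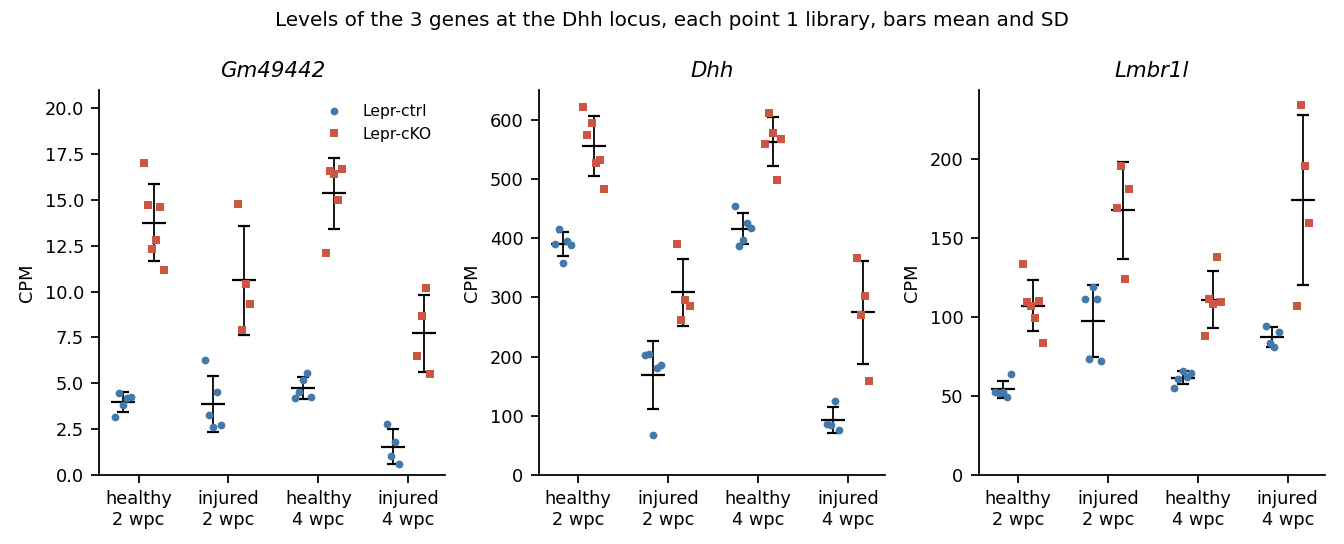
Levels in CPM of *Gm49442*, *Dhh* and *Lmbr1l* in each library of the 8 groups, without the library left out, by nerve and time point. Circles are *Lepr*-ctrl, squares *Lepr*-cKO, and bars the mean and SD, and in each pair of groups the *Lepr*-cKO points lie above the *Lepr*-ctrl points.

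*Lepr* itself did not separate the genotypes. It had 31.8, 65.7, 66, 36.6 and 68 CPM in *Lepr*-ctrl nerves and 31.1, 76.3, 122.8 and 62.9 CPM in *Lepr*-cKO nerves. The groups overlapped, and the highest value belonged to *Lepr*-cKO animal cKO-135. The log2 fold change was 0.45 (SE 0.31, 95% confidence interval -0.18 to 1.08, edgeR adjusted p = 0.947). Without cKO-135 it was 0.08 (SE 0.32), and without both ctrl-144 and cKO-135 it was 0.16 (SE 0.34). By the study's account the deletion removes the start of the gene, and a truncated receptor is still made. The study's qPCR of injured endoneuria at 2 wpc found less *Lepr* mRNA in *Lepr*-cKO than in *Lepr*-ctrl mice. The counts here cover the whole gene, and whether they reflect the recombination was not tested. Crush raised *Lepr* in control nerves by 2.52 on the log2 scale (edgeR adjusted p = 1.95e-08), from 9.36 ± 1.69 CPM (SD, n = 5) in healthy nerves.

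Genes of leptin receptor signalling were as often higher as lower. Of 19 tested, 10 were higher and 9 lower, with a median log2 fold change of 0.004, which was the median of all genes tested as well, of which 50.8% were higher. None was called or differed without overlap, and without both ctrl-144 and cKO-135 the count was 7 of 19 and the median -0.169. *Socs3*, the feedback inhibitor induced by STAT3, was at 50 ± 12.2 CPM (SD, n = 5) in *Lepr*-ctrl and 63.8 ± 29.3 CPM (SD, n = 4) in *Lepr*-cKO nerves, with a 95% confidence interval of -0.09 to 0.8 on the log2 scale around 0.35. Without cKO-135 its log2 fold change was 0.07 (SE 0.22). *Leprot*, which limits the surface level of the receptor, had an interval of -0.48 to 0.29, and *Rnf41*, a ubiquitin ligase, of -0.28 to 0.06. *Irs1*, an adaptor of insulin signalling, had a log2 fold change of -0.56 (SE 0.29) and the phosphatase gene *Ptpn2* one of 0.22 (SE 0.13), neither past the test. *Lep*, which encodes leptin and is a marker of adipocytes, was at 2.33 and 1.76 CPM in *Lepr*-ctrl animals ctrl-130 and ctrl-131 and at 4.53 CPM in *Lepr*-cKO animal cKO-138, and at most 0.0404 CPM in the other 6 libraries. These are the 3 libraries with the most *Adipoq*, at 18, 14.5 and 10.4 CPM, whereas the others had at most 0.242 CPM.

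Of the genes with separate genotypes, *Gm49442* alone passed the test after adjustment, and the others given here are those with the lowest p among genes with a mean above 1 log2 CPM. As these were picked from the same data by separation and p, their separation is no further support for a difference. *Tcim*, a regulator of Wnt signalling, was at 46.4 ± 5.31 CPM (SD, n = 5) in *Lepr*-ctrl and 90.1 ± 17.7 CPM (SD, n = 4) in *Lepr*-cKO nerves, with single values of 38.5 to 52.8 and 73.4 to 114 CPM. Its log2 fold change of 0.96 (SE 0.21, edgeR adjusted p = 0.305) was the largest after *Gm49442* among the 10 higher genes named by the rule, and in injured nerves at 4 wpc it was -0.09. *Lrrc8a*, a subunit of the volume-regulated anion channel, had a log2 fold change of 0.56 and *Ptma*, which encodes prothymosin alpha, one of 0.42. *Fam181b*, *Naa16*, *Spata5* and *Tmem185b* were between 0.27 and 0.49.

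Of the 61 genes lower in every *Lepr*-cKO nerve, 10 were named by the same rule, and none of these passed the test after adjustment. Their separation, too, is how they were picked and no further support. *Slc48a1*, a transporter of heme out of lysosomes that lies on chromosome 15 at 1120 kb from *Dhh*, was at 83.3 to 104 CPM in *Lepr*-ctrl and 64.7 to 78.3 CPM in *Lepr*-cKO nerves, a log2 fold change of -0.38 (SE 0.09, edgeR adjusted p = 0.382). *Mavs*, the mitochondrial adaptor of antiviral RNA sensing, had -0.31 (SE 0.08), and *Aifm2*, an oxidoreductase that protects lipids from peroxidation, had -0.37 (SE 0.09). *Idh2*, the mitochondrial isocitrate dehydrogenase, was at 49.3 ± 4.35 and 38.9 ± 3.81 CPM, a log2 fold change of -0.34 (SE 0.1). *Atg13*, a subunit of the kinase complex that starts autophagy, was at 47.1 to 56.8 and 41.1 to 45.1 CPM, a log2 fold change of -0.27 (SE 0.08, edgeR adjusted p = 0.922). *Gadd45b*, *Tango2*, *Hs1bp3*, *Focad* and *Pmm1* were between -0.66 and -0.31. In healthy nerves at 2 wpc the log2 fold changes of *Slc48a1*, *Mavs* and *Aifm2* were 0.04, -0.01 and 0.04.

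Dhh binds the receptor Patched on neighbouring cells, which relieves Smoothened and lets GLI factors act, with *Ptch1* and *Gli1* among their targets. The Hedgehog list, 18 genes tested, had 4 members higher and 14 lower with a median log2 fold change of -0.114, and *Dhh* was the one member without overlap. *Shh*, which repair Schwann cells express, was at 15.2 ± 5.77 and 19.1 ± 8.66 CPM (95% confidence interval of the log2 fold change -0.32 to 0.97). The targets, named after their values were seen, had lower means in *Lepr*-cKO nerves and overlapped. *Ptch1* had a log2 fold change of -0.48 (SE 0.38). *Gli1* was at 21.6 to 104 and 20.1 to 75.3 CPM, a log2 fold change of -0.65 (SE 0.41). Within their genotypes, *Gli1* was lowest in *Lepr*-ctrl animal ctrl-144 and in *Lepr*-cKO animals cKO-135 and cKO-128. These libraries also had the lowest fibroblast sums of their genotypes, at 3390, 4603 and 4668 CPM. The same held for the Schwann cell sums (7461, 11900 and 19000 CPM) and the myelin sums (13460, 21310 and 33800 CPM). The pattern was thus not particular to fibroblasts, and the part of any cell type in the *Ptch1* and *Gli1* values was not tested.

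Nuclear genes of oxidative phosphorylation (OxPhos) had small differences between the genotypes. Of 75 tested, 29 were higher and 46 lower, the median log2 fold change was -0.037 and the single values ran from -0.253 to 0.334. The 95% confidence interval of each of the 75 lay inside a 2-fold change in either direction, and none was called or without overlap. Such intervals were found for 96.2% of all genes with a mean of 4 to 7 log2 CPM. In injured nerves at 4 wpc the median of this list was -0.167, a size that a 2-fold limit does not exclude. The complex I genes *Ndufb8*, at 53.1 ± 3.23 and 44.6 ± 4.36 CPM, and *Ndufa10*, at 61.8 ± 6.75 and 68.4 ± 5.67 CPM, had the lowest p in each direction. With the library of animal cKO-126 included, 71 of the 75 were higher and the median was 0.233. OxPhos genes encoded in mitochondrial DNA were all higher, 7 of 7 tested among 13, with a median log2 fold change of 0.419 that rested on wide intervals. Their summed level was 64870 to 98470 CPM in *Lepr*-ctrl nerves other than animal ctrl-144, which had 334700 CPM, and 107700 to 316100 CPM in *Lepr*-cKO nerves. Without animal ctrl-144 the groups were thus separate and the median was 1.076, without cKO-135 it was 0.01 with 4 of 7 higher, and without animals ctrl-144 and cKO-135 together it was 0.726. With all 9 libraries *mt-Nd5* had a log2 fold change of 0.64 (SE 0.36) and none of the 7 reached an unadjusted p under 0.05.

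Other genes of energy metabolism gave the same picture of small differences. Glycolysis and lactate genes were lower in 19 of 23 cases with a median of -0.144, none called. *Hk2*, a hexokinase, was at 19.3 ± 2.79 CPM in *Lepr*-ctrl and 13 ± 3.4 CPM in *Lepr*-cKO nerves, with an overlap of single values (14.6 to 21.5 and 8.29 to 15.8 CPM), and *Pfkm*, the muscle-type phosphofructokinase, had a log2 fold change of -0.23 (SE 0.1). Mitochondrial biogenesis and dynamics genes had 9 of 20 higher and a median of -0.018, and fatty acid oxidation genes 9 of 19 and -0.023. *Dnm1l*, the mitochondrial fission GTPase, had 0.18 (SE 0.09), *Hadhb*, a subunit of the trifunctional enzyme, 0.37 (SE 0.14) and *Acads*, the short-chain acyl-CoA dehydrogenase, -0.3 (SE 0.1). Autophagy genes were lower in 26 of 36 cases with a median of -0.075, and all 36 intervals lay inside a 2-fold change. *Ulk1*, the kinase bound by ATG13, had a log2 fold change of -0.23 (SE 0.12). Mitochondrial ribosomal protein genes had a median of 0.009 over 78 genes and cytosolic ones 0.065 over 80.

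**Figure D5:**
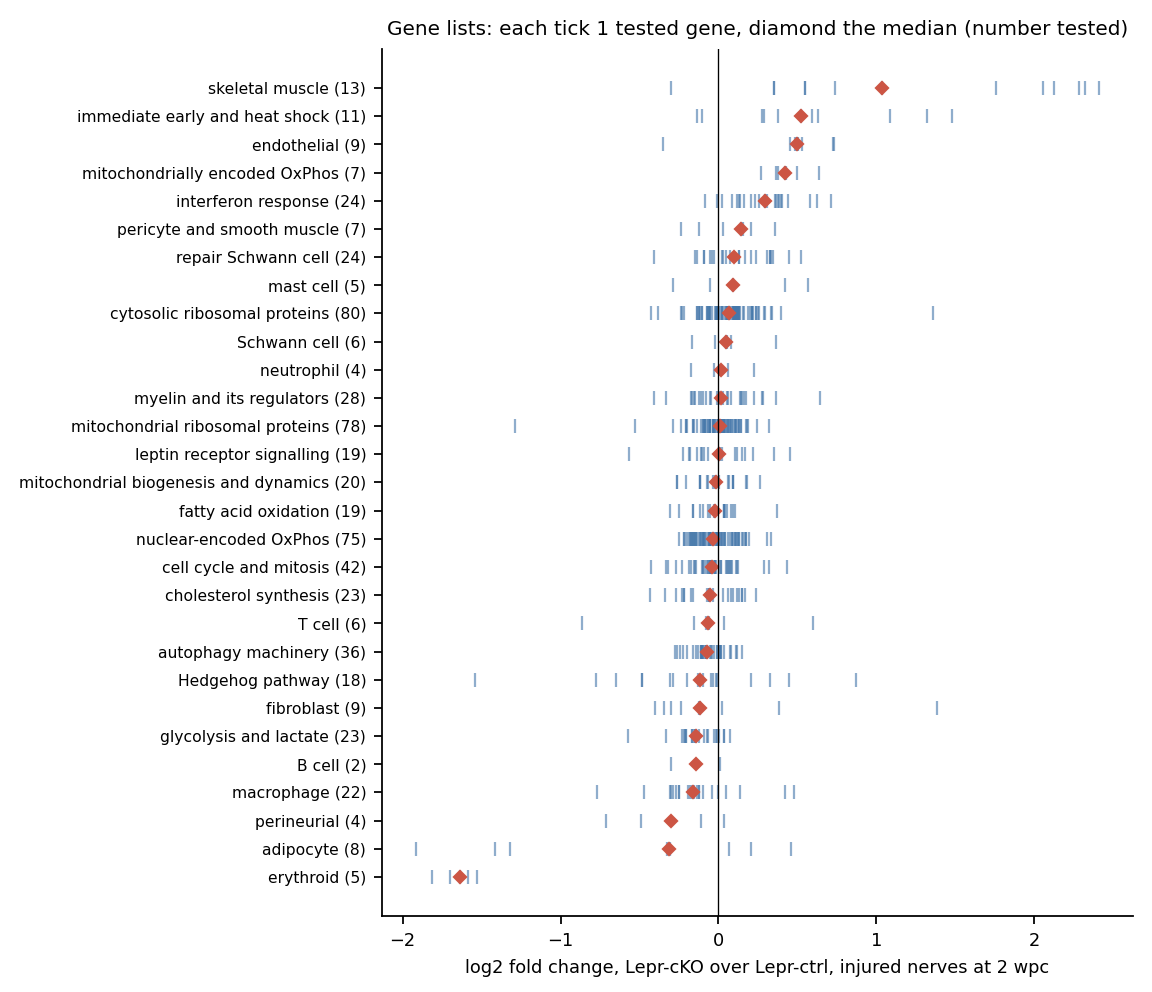
Each row is a gene list with the number of genes tested. Ticks are the log2 fold changes of single genes, *Lepr*-cKO over *Lepr*-ctrl in injured nerves at 2 wpc, and diamonds are the medians. The nuclear OxPhos, autophagy and cell cycle lists are narrow and near 0, whereas the muscle, erythroid, immediate early and endothelial lists lie away from it.

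Genes of the repair and remyelination programmes overlapped between the genotypes. Repair Schwann cell genes were higher in 16 of 24 cases with a median log2 fold change of 0.099. *Jun* was at 140 ± 22.3 CPM (SD, n = 5) in *Lepr*-ctrl and 173.2 ± 55.1 CPM (SD, n = 4) in *Lepr*-cKO nerves (95% confidence interval of the log2 fold change -0.14 to 0.76). Its log2 fold change of 0.31 was 0.11 (SE 0.23) without cKO-135. *Gap43*, a growth-associated protein, had a log2 fold change of 0.45 (SE 0.2, edgeR adjusted p = 0.947). The summed level of the repair list was highest in *Lepr*-cKO animal cKO-135 (3567 CPM) and in *Lepr*-ctrl animal ctrl-130 (3150 CPM). Without animals ctrl-144 and cKO-135, 8 of the 24 were higher and the median was -0.101.

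Myelin genes and their regulators were higher in 15 of 28 cases, with a median of 0.016. *Mbp*, which encodes myelin basic protein, was at 4960, 3230, 2260, 6380 and 6020 CPM in *Lepr*-ctrl and 6860, 3560, 2520 and 5210 CPM in *Lepr*-cKO nerves, a spread within each genotype far above the difference (log2 fold change -0.01, SE 0.27). *Egr2*, which drives myelin genes, had a 95% confidence interval of -0.22 to 0.78, and *Pou3f1*, a factor of the promyelinating stage, of -0.92 to 0.58. *Prx*, which encodes periaxin, had a log2 fold change of -0.33 (SE 0.26). Cholesterol synthesis genes had a median of -0.051 over 23 genes, with *Hmgcs1*, an early enzyme of the pathway, at 261 ± 124 and 289 ± 149 CPM. Animal ctrl-144 lowered the *Lepr*-ctrl side of both lists. Without it, 8 of 28 myelin genes and 3 of 23 cholesterol genes were higher in *Lepr*-cKO nerves and the medians were -0.167 and -0.17, and without both ctrl-144 and cKO-135 the counts were 16 and 7 and the medians 0.016 and -0.097.

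Cell cycle genes had a median log2 fold change of -0.043, with 16 of 42 higher and none called. With each library left out in turn, the median ran from -0.117 to 0.109. In control nerves the crush raised the median of this list by 1.948 on the log2 scale. The proliferation marker *Mki67* was at 70.9, 35.7, 18.6, 29 and 31.5 CPM in *Lepr*-ctrl and 33.2 to 45.8 CPM in *Lepr*-cKO nerves. The means were 37.1 and 36.5 CPM, but the *Lepr*-ctrl mean was raised by the 70.9 CPM of animal ctrl-123. The log2 fold change was -0.02 (95% confidence interval -0.78 to 0.73), too wide an interval to show equal levels. By staining, the study found a lower rate of Schwann cell proliferation in *Lepr*-cKO nerves at this stage. The counts cover all cells of the nerve, so that rate was not tested here.

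Markers of other cells of the nerve overlapped between the genotypes, and several were set by single libraries. Macrophage genes were lower in 18 of 22 cases with a median of -0.162. *Lgals3*, which encodes galectin-3, was at 338 to 2260 CPM in *Lepr*-ctrl and 443 to 749 CPM in *Lepr*-cKO nerves, with the highest value in animal ctrl-144. Without that library the median of the macrophage list was -0.018 and 10 of 22 were higher, and without both ctrl-144 and cKO-135 it was 0.133 and 17 were higher. Without cKO-128 it was -0.413. Endothelial genes were higher in 8 of 9 cases with a median of 0.495, and *Kdr*, the main VEGF receptor, was at 32.8 to 65.7 CPM in *Lepr*-ctrl but 31.2, 62.7, 199 and 38.2 CPM in *Lepr*-cKO nerves. The endothelial sum of 2460 CPM in *Lepr*-cKO animal cKO-135 exceeded all others, without it the median was -0.014 and 3 of 9 were higher, and without both ctrl-144 and cKO-135 the median was 0.034. Globin and other erythroid genes were lower in 5 of 5 cases, and their sums were 114.1 and 115.5 CPM in *Lepr*-ctrl animals ctrl-144 and ctrl-147 and 2.139 to 21.19 CPM elsewhere. Fibroblast, perineurial, pericyte, T cell, B cell, mast cell and neutrophil lists had medians from -0.303 to 0.143, with no gene called. *Retnlg*, a neutrophil gene, was at 60 CPM in *Lepr*-ctrl animal ctrl-144 and 56.3 CPM in *Lepr*-cKO animal cKO-138 and at most 5.3 CPM in the others.

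Interferon response genes were higher in 22 of 24 cases with a median of 0.296, but none reached an unadjusted p under 0.05 and the sums overlapped, at 279.6 to 597.4 CPM in *Lepr*-ctrl and 408.1 to 680.2 CPM in *Lepr*-cKO nerves. Without cKO-125, which had the highest sum, 13 of 24 were higher and the median was 0.006. *Ifit1* was at 12.2 ± 7.61 and 18.2 ± 10.5 CPM, and *Usp18* had a log2 fold change of 0.71 (SE 0.54). Immediate early and heat shock genes were higher in 9 of 11 cases with a median of 0.52. *Dusp1*, a phosphatase gene induced within minutes of stress or dissection, was at 28.3 to 42.2 CPM in *Lepr*-ctrl and at 29.4, 43.2, 165 and 157 CPM in *Lepr*-cKO nerves. The high values belonged to animals cKO-135 and cKO-138, while cKO-125 lay within the range of *Lepr*-ctrl and cKO-128 just above it. Its log2 fold change was 1.48 (SE 0.34, edgeR adjusted p = 0.321), and DESeq2 called it together with *Gm49442*. *Fos* showed the same split, at 148 and 96.8 CPM in *Lepr*-cKO animals cKO-125 and cKO-128 and 285 and 605 CPM in animals cKO-135 and cKO-138.

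Skeletal muscle genes remained higher in *Lepr*-cKO nerves after animal cKO-126 was left out. As muscle transcripts chose the libraries, this is a description only. The median log2 fold change was 1.035 over 13 genes, of which 12 were higher and 3 higher without overlap. Of all genes tested, 0.256% were higher without overlap. In healthy nerves at 2 wpc the median of the list was 1.001. The sums in injured nerves were 7.875 to 18.09 CPM in *Lepr*-ctrl. They were 11 and 10.49 CPM in *Lepr*-cKO animals cKO-125 and cKO-128, and 34.29 and 34.32 CPM in animals cKO-135 and cKO-138. *Ckm*, the muscle creatine kinase, was at 1.7 CPM or lower in all 9 libraries.

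The response to injury was then compared between the genotypes, as the difference between injured and contralateral nerves in *Lepr*-cKO minus that in *Lepr*-ctrl. It asks whether a gene that differs in the injured nerve differs beyond what the healthy nerve shows. Of 18394 genes, 0 were called by edgeR and 0 by DESeq2, with 771 (4.19%) at an unadjusted p under 0.05 in edgeR. For the genes of the *Dhh* locus the estimates were -0.34 (SE 0.33) for *Gm49442*, 0.36 (SE 0.27) for *Dhh* and -0.2 (SE 0.23) for *Lmbr1l*, each with an edgeR adjusted p of 0.963. The genes with the lowest p were *Tmem25*, with -1.19 (SE 0.27), and *Vps37d*, a subunit of the sorting complex ESCRT-I, with -1 (SE 0.25), both with an edgeR adjusted p of 0.963. In control nerves the crush itself changed 6354 genes (34.5%) at the same thresholds.

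In injured nerves at 4 wpc, 100 genes (0.544%) were called between the genotypes, and the change of the genotype difference between time points was tested directly. At 4 wpc minus 2 wpc, 4 genes (0.0217%) were called, *Tmem25*, *AC156546.1*, *Nlgn1* and *Map7d2*. In this contrast 2653 genes (14.4%) had an unadjusted p under 0.05 in edgeR, a larger share than in the 2 contrasts at 2 wpc. *Tmem25*, which encodes a transmembrane protein of the immunoglobulin superfamily, was at 1.84, 1.1, 1.45, 1.73 and 1.89 CPM in *Lepr*-ctrl and 0.926, 0.773, 0.768 and 0.749 CPM in *Lepr*-cKO nerves at 2 wpc, without overlap. Its log2 fold change was -0.99 (SE 0.21) at 2 wpc and 0.74 (SE 0.23) at 4 wpc, a difference of 1.73 (SE 0.31, edgeR adjusted p = 0.0294). *Nlgn1*, the postsynaptic adhesion protein neuroligin 1, went from -1.02 (SE 0.34) to 1.85 (SE 0.43), a difference of 2.88 (SE 0.55, edgeR adjusted p = 0.0435). *Map7d2*, a microtubule-associated protein gene, went the other way, from 0.38 (SE 0.3) to -1.91 (SE 0.33), a difference of -2.29 (SE 0.44, edgeR adjusted p = 0.0463). *AC156546.1* had only 1 to 2 counts in each *Lepr*-cKO library at 2 wpc, against 3 to 12 in *Lepr*-ctrl, a ratio of 0.183 (95% interval of counting error 0.063 to 0.438). At 4 wpc it had 7 to 27 and 1 to 8 counts, a ratio of 2.91 (1.74 to 5.1), and the difference had an edgeR adjusted p of 0.0294. *Fbxo10*, with a difference of 0.9 (SE 0.18, edgeR adjusted p = 0.0529), was next. All 5 genes fell after the crush in control nerves, with log2 fold changes from -0.69 to -5.14 and edgeR adjusted p values of 0.00146 or less.

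The count of 4 called genes depended on single libraries at 2 wpc, and those at 4 wpc were not left out in turn. Without *Lepr*-ctrl animal ctrl-144, 355 genes were called between time points, all 4 above among them, and without *Lepr*-cKO animal cKO-128 the number was 0. Without animals ctrl-144 and cKO-135 together it was 302. With animal cKO-126 included, 0 were called, and with DESeq2, 43. Animals at 2 wpc and 4 wpc were different mice, and the time of sampling and the set of animals cannot be told apart.

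The median standard error of a log2 fold change was 0.206. The 95% confidence interval lay inside a 2-fold change in either direction for 13208 of 18393 genes (71.8%), among them 96.2% of 7396 genes with a mean of 4 to 7 log2 CPM but 22.3% of 5261 genes with a mean below 1. For 42.8% of all genes the interval lay inside a log2 fold change of 0.5. Absolute estimates above 1 on the log2 scale were found for 2.81% of genes, and for 8.82% of those with a mean below 1 log2 CPM. For most weakly expressed genes the interval thus reached beyond a 2-fold change with 4 and 5 nerves at this depth. An estimate of 2-fold or less could not be called for any gene, because the threshold was an absolute log2 fold change above 1.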

How the data were processed

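Raw counts per gene were deposited for 39 nerves, 55573 genes each. The authors made them from TruSeq RNA libraries (a kit that does not mark strand), sequenced as single-end reads and processed, per the labels, with bcl2fastq 2.20.0.422, STAR 2.5 (GRCm38) and featureCounts 1.5.0-p1; its settings for strand and multimapping reads are not given in the sources used here. Gene names came from GENCODE for GRCm38 and matched 55480 genes. Groups came from sample titles, and replicates are separate animals.

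The counts were analysed in R 4.3.3 with edgeR 4.0.16: genes were kept by filterByExpr (minimum count 10, minimum total 15), scaled by TMM and tested with robust quasi-likelihood F tests in 1 fit of 38 libraries, with the injured nerve of animal cKO-126 left out. A gene was called at an adjusted p under 0.05 (Benjamini-Hochberg) and an absolute log2 fold change above 1. Intervals are 95% intervals of the fit, and those of single low counts are exact and cover counting error only. Alternatives used DESeq2 1.42.0, limma 3.58.1, other filters and libraries, and a term for sex. The lists and the genes described were chosen with earlier results of these data known. Genes were named by rules: genes the study measured by qPCR, every called gene, up to 10 per direction with the lowest p among genes without overlap and a mean log2 CPM above 1 (sex-linked and muscle genes left out), and for each list the first 2 members and the lowest p in each direction. Lists were described by counts and medians, with no set test. Some genes that these rules name are not reported here. Statistics were tested on simulated data.

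Injured and contralateral nerves of 8 animals were paired by animal number; their deviations from the group means correlated at 0.178 to 0.567 over 5000 genes, and both nerves of each pair matched in sex.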

Additional observations from a re-analysis of the deposited data

Results flagged for a closer look

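A sample far from the others of its genotype was found in 12 of 134 sets of 4 or 5 values examined. The limit used gives about 1 in 20 for independent, normally distributed values. Some sets share genes and the distribution was not checked, so the number of flags cannot be set against that share. Animal ctrl-144 accounted for 7 of the 12 flags. In *Lepr*-ctrl it had the lowest *Dhh* (67.2 CPM, next 181 CPM), the lowest *Fam181b* (8.46 CPM, next 13.3 CPM), the highest *Aifm2* (38.7 CPM, next 30.8 CPM) and the lowest Hedgehog sum (365 CPM, next 671.2 CPM). It also had the highest sum of mitochondrially encoded OxPhos genes (334700 CPM, next 98470 CPM), the highest neutrophil sum (66.76 CPM, next 6.633 CPM) and the largest share of mitochondrially encoded counts (33%, next 11.8%). Among *Lepr*-cKO nerves, cKO-125 had the lowest *Aifm2* (22.5 CPM, next 24.7 CPM) and the highest *Tmem25* (0.926 CPM, next 0.773 CPM), cKO-128 the highest macrophage sum (16510 CPM, next 9857 CPM) and cKO-138 the highest neutrophil sum (60.65 CPM, next 9.39 CPM) and adipocyte sum (350 CPM, next 84.51 CPM).

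For 4 genes the genotype difference itself differed between injured nerves at 4 wpc and 2 wpc by edgeR's interaction test. The differences of log2 fold changes were 1.73 for *Tmem25*, 3.67 for *AC156546.1*, 2.88 for *Nlgn1* and -2.29 for *Map7d2*. The injured nerve of animal cKO-126, which the comparison did not use, held 10400 CPM of *Acta1*.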

How the results depend on the processing

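With the injured nerve of animal cKO-126 kept in, 97 genes were called between genotypes at 2 wpc and 0 between time points. There, *Idh2* had a log2 fold change of 0.02 and *Tmem25* of 1.1, turned from below 0, and the medians of the nuclear OxPhos, glycolysis, mitochondrial biogenesis and fatty acid oxidation lists were 0.233, 0.19, 0.123 and 0.21. At 2 wpc, 0 genes were called with only the groups compared in the fit (208 at an unadjusted p under 0.05), with at least 10 counts in every library (686), where *Gm49442* was not tested, and with limma's sample quality weights (490), and 2 with DESeq2. Leaving out 1 library gave 0 to 1 (0 without ctrl-130, ctrl-131 or cKO-135), and the gene was *Spon2* without ctrl-144 and *Dusp1* without cKO-125. Without both ctrl-144 and cKO-135, an alternative chosen after the data were seen, it was *Hoxb3os*. Between time points, counts were 0 with only the groups compared, 43 with DESeq2, 2 with at least 10 counts in every library, 1 with quality weights, 302 without both ctrl-144 and cKO-135, and 0 to 355 with 1 library left out (355 without ctrl-144, 21 without cKO-125, 7 without cKO-135, 2 without cKO-138, 1 without ctrl-130, 0 without cKO-128). With limma voom the count between time points was 0 with and without the animal as a replicate block. Under that block the count at 2 wpc was 1, and the response to injury gave 0 calls under each alternative, the block included. The cause of these changes was not tested. Of 36 named genes, *Gm49442* alone was called in the main fit, so no other had a call to lose.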
